A study of Mus musculus with 9 samples.

Results

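Lamp1, Itgb1, Bsg, Emb, Slc3a2, Lrp1, Ddost, Hspa5, Hsp90b1 and Tmbim6 encode proteins that are made at the endoplasmic reticulum, and their mRNAs are described here in RNA crosslinked to the RNA-binding protein Chtop. These 10 genes were taken by symbol from the 22442 genes of the deposited count tables, and each symbol matched 1 gene. They were listed with earlier results of these same libraries known, their levels against input included, so their values against input are given as a description with no test.

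Binding was measured by iCLIP, in which ultraviolet light joins RNA to the protein it touches, an antibody recovers the protein and the attached RNA is sequenced. All 9 libraries came from N2a Flp-In rtTA cells, a mouse neuroblastoma line made to express a chosen cDNA on addition of doxycycline (2 µg/mL for 24 hours), and cells were irradiated with 0.15 J/cm2 at 254 nm. In 3 libraries the cDNA was FLAG-Chtop with exon 5, in 3 it was FLAG-Chtop without exon 5, and both were recovered with anti-FLAG M2. The other 3 libraries were size-matched inputs, which are crosslinked lysate (2% of it kept aside) run on the same type of gel without the antibody step. Input 1 came from the line with FLAG-Chtop without exon 5, input 2 from the line with FLAG-Chtop with exon 5 and input 3 from a line with FLAG-GFP. The labels state that the replicates were biological, harvested on separate days, and do not state whether each line was a single clone or whether untagged Chtop remained.

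Secreted proteins and proteins of the plasma membrane, the lysosome and the endoplasmic reticulum are translated on ribosomes at the endoplasmic reticulum membrane, where they are inserted or translocated, folded and N-glycosylated. Chaperones of the lumen hold the new chains, and the oligosaccharyltransferase complex adds the glycan. Chtop is a nuclear protein of the mRNA export machinery, and its exon 5 is alternatively spliced.

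Totals were 783868, 851442 and 1328423 counts with exon 5, 624062, 1005472 and 1844970 counts without exon 5, and 111982, 173342 and 75504 counts in the inputs, so the inputs limited the precision. Levels are in CPM, that is counts over the library total, adjusted by TMM factors and put on a common scale, and 3 counts corresponded to 2.16 to 5.67 CPM in the isoform libraries and to 16.8 to 21.7 CPM in the inputs. All 10 genes had counts in every library, whereas 19.5% of the 8342 genes tested had a count in all 3 inputs. The Chtop gene had 385 ± 20.6 CPM (SD, n = 3) with exon 5, 238 ± 36.7 without exon 5 and 175 ± 256 in the inputs. Inputs 1, 2 and 3 held 76, 10 and 0 Chtop counts. Counts per gene do not check which isoform a library held, nor separate the cells' own Chtop mRNA from that of the cDNA. Of 15 listed markers of neuroblastoma and sympathetic neurons 9 were named in the tables, and 9, 8 and 8 of these had counts with exon 5, without exon 5 and in the inputs (summed levels of 1154 to 1473, 800 to 1107 and 601 to 2688 CPM). Dbh, a noradrenaline enzyme, was at 0 without exon 5 and in the inputs, and the epithelial markers Krt18 and Cdh1 were at 0 in all 9 libraries. Summed fibroblast markers (5 named) reached at most 1.47 CPM with exon 5, 3.63 CPM without exon 5 and 72.4 CPM in the inputs, with Col1a2, Col3a1 and Dcn at 0 throughout. Glial markers (3 named) summed to 11.7 to 17.3 CPM with exon 5, 10.1 to 38.7 CPM without exon 5 and 0 to 14.5 CPM in the inputs, and Csf1r, the named immune marker, reached 1.47 CPM with exon 5 and was at 0 elsewhere.

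The promoters of the luminal chaperone genes carried a known element. Hspa5 and Hsp90b1 are the textbook targets of the unfolded protein response, which acts through the endoplasmic reticulum stress element, written CCAAT, then 9 bases of any letter, then CCACG. The matches are shown because they are a sequence feature that 2 of the 10 genes share and that the list's rule does not mention. They were found on either strand in windows from 250 bases before to 50 bases after the annotated start, in RefSeq sequence of GRCm38.p6, with capitals for the fixed letters of the element. Each distance is that of the match's first base in the direction of the gene, whichever strand is printed.
Hspa5, chr2:34772025-34772043, + strand, beginning 65 bases before the start: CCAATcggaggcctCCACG
Hsp90b1, chr10:86705638-86705656, - strand, beginning 212 bases before the start: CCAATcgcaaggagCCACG
Hsp90b1, chr10:86705533-86705551, + strand, beginning 107 bases before the start: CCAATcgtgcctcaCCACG
Of the 8 genes with a promoter in the table (not Bsg and Tmbim6), these 2 held a match, as did 39 of all 32851 promoters (0.119%). Among 16 promoters of other chaperones and folding enzymes of the same compartment, 6 held one (Calr, Canx, Pdia6, Dnajc3, Creld2 and Ero1b). Hspa5 and Hsp90b1 were already known as targets, so these shares are no test of the list. A match is a run of letters in the DNA and says nothing about binding of a factor in these cells.

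Together the 10 mRNAs made up a smaller share of the isoform libraries than of the inputs. Their share of all counts was 0.209%, 0.183% and 0.160% with exon 5, 0.217%, 0.305% and 0.340% without exon 5, and 0.687%, 0.565% and 0.858% in the inputs. These shares involve no scaling between libraries, and neither isoform's range reached that of the inputs. Lrp1 and Slc3a2 supplied much of the isoform libraries' share. Without these 2 genes the shares were 0.117%, 0.0753% and 0.0522% with exon 5 and 0.0859%, 0.125% and 0.128% without exon 5, against 0.538%, 0.482% and 0.799% in the inputs. The shares compare RNA recovered with FLAG-Chtop with RNA of the lysate, and do not measure how much of an mRNA the cells held. Cultures were sampled whole, so the values are averages over cells.

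**Figure D1:**
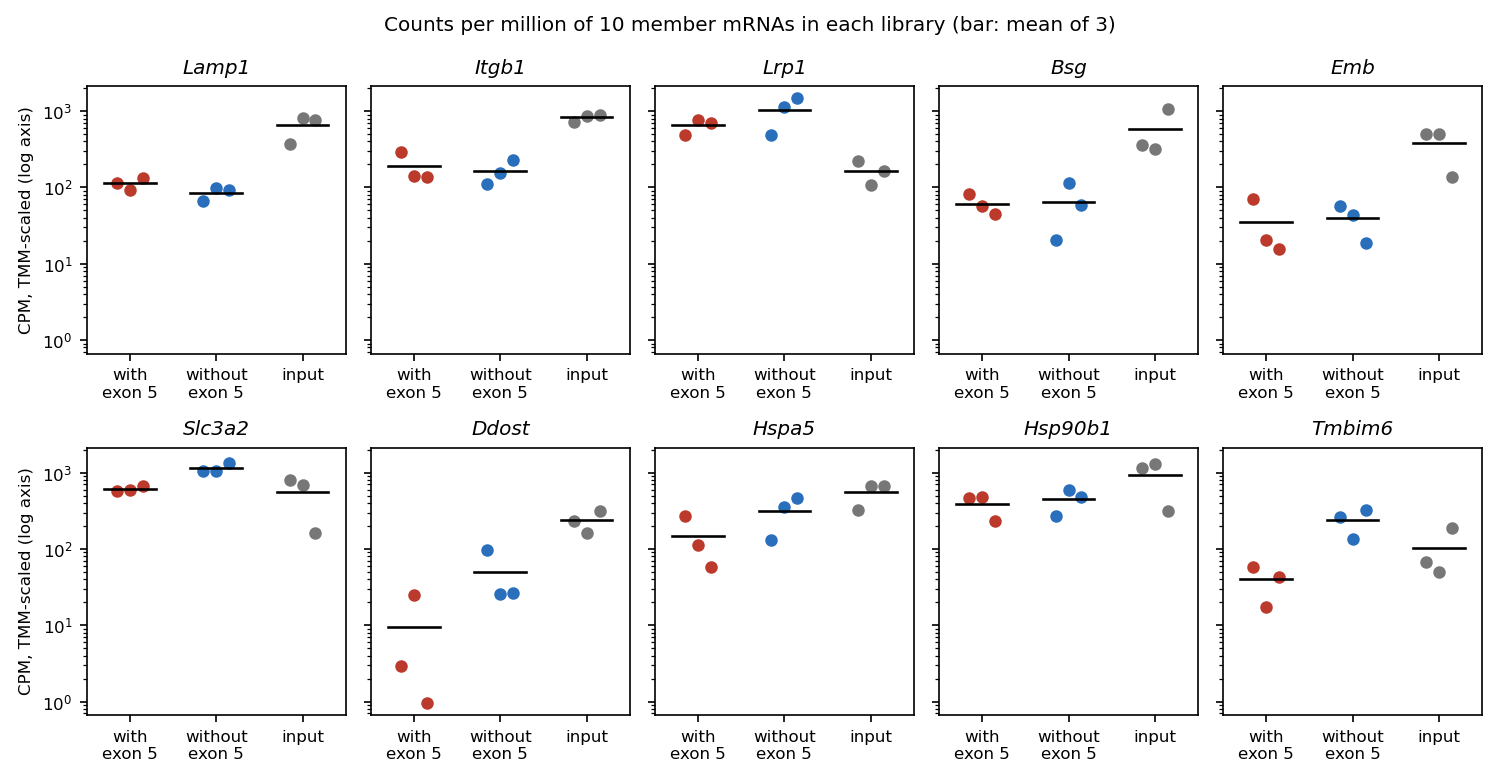
Level of each mRNA in each library, in CPM after TMM scaling on a log axis, for libraries with exon 5 (red), without exon 5 (blue) and inputs (grey), with a bar at the mean of 3. Lamp1, Itgb1, Bsg, Emb and Ddost lie below all inputs with either isoform, Lrp1 lies above them, and Slc3a2, Tmbim6 and Ddost are lower in every library with exon 5 than in any without it.

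Lamp1, Itgb1, Bsg and Emb were below every input with both isoforms, as was Ddost of the endoplasmic reticulum. Lamp1 (ENSMUSG00000031447.7; chromosome 8, 13159161 to 13175338), a heavily glycosylated protein of the lysosome membrane, had 116, 92.4 and 134 CPM with exon 5, 66.1, 99.1 and 91.3 CPM without exon 5, and 370, 823 and 775 CPM in the inputs. Its 6 isoform libraries lay close together, and every one was below the lowest input. The fitted log2 fold change of edgeR over input was -2.52 ± 0.75 with exon 5 and -2.94 ± 0.77 without (SE), or 5.74-fold and 7.65-fold below input.

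Itgb1 (ENSMUSG00000025809.15; chromosome 8, 128685654 to 128733579), the integrin beta 1 chain that pairs with many alpha chains to bind the extracellular matrix, showed the same order. It had 289, 142 and 136 CPM with exon 5, 111, 155 and 231 CPM without exon 5, and 722, 862 and 898 CPM in the inputs. The inputs were tight and stood apart from both isoforms, whose ranges overlapped. Its log2 fold change over input was -2.13 ± 0.68 with exon 5 and -2.31 ± 0.68 without (SE).

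Basigin and embigin are related immunoglobulin-domain glycoproteins that escort monocarboxylate transporters to the cell surface. Bsg (ENSMUSG00000023175.15; chromosome 10, 79704358 to 79711979) had 82.2, 57.2 and 44.2 CPM with exon 5, 20.8, 115 and 58.9 CPM without exon 5, and 358, 319 and 1065 CPM in the inputs. Emb (ENSMUSG00000021728.8; chromosome 13, 117220573 to 117274415) had 70.5, 20.5 and 15.4 CPM with exon 5, 56.7, 43.5 and 18.7 CPM without exon 5, and 494, 504 and 138 CPM in the inputs. Both mRNAs were below input in every isoform library, and in both a single input stood apart, input 3 being high for Bsg and low for Emb. The log2 fold changes over input were -3.24 ± 0.94 with exon 5 and -3.15 ± 0.93 without for Bsg. For Emb they were -3.42 ± 1.04 with exon 5 and -3.26 ± 1.04 without (SE). The annotated pseudogene Gm35144 overlaps Emb, and the sources used here do not say how reads of overlapping genes were assigned.

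Slc3a2 did not share the low values of Lamp1, Itgb1, Bsg and Emb. Slc3a2 (ENSMUSG00000010095.13; chromosome 19, 8706882 to 8723369) encodes the 4F2 heavy chain, also called CD98, which carries amino acid transporter light chains to the membrane and binds beta 1 integrin. It had 567, 584 and 669 CPM with exon 5, 1060, 1060 and 1341 CPM without exon 5, and 803, 694 and 159 CPM in the inputs. The libraries without exon 5 were the highest of the 9, those with exon 5 lay inside the range of the inputs, and input 3 was far below the other inputs. Its log2 fold change over input was 0.13 ± 0.58 with exon 5 and 1.06 ± 0.59 without (SE).

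Lrp1 was above input with both isoforms. Lrp1 (ENSMUSG00000040249.15; chromosome 10, 127538157 to 127621148) encodes a giant endocytic receptor of the low-density lipoprotein receptor family, which takes up apolipoprotein E and many other ligands. It had 492, 757 and 705 CPM with exon 5, 484, 1128 and 1478 CPM without exon 5, and 222, 106 and 167 CPM in the inputs. The lowest isoform library was above the highest input, although the inputs rested on only 36, 19 and 23 counts. The log2 fold change over input was 1.98 ± 0.62 with exon 5 and 2.64 ± 0.63 without (SE). The lncRNAs Gm16217 and Gm51820 overlap the gene.

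The genes of the endoplasmic reticulum itself were spread over a wide range. Ddost (ENSMUSG00000028757.4; chromosome 4, 138304738 to 138312619), a subunit of the oligosaccharyltransferase, was rarely counted in the libraries with exon 5, with 2, 17 and 1 counts there. It had 2.94, 24.9 and 0.962 CPM with exon 5, 98.2, 25.4 and 26.6 CPM without exon 5, and 235, 162 and 319 CPM in the inputs. The 3 groups did not overlap, but replicate 2 with exon 5 and replicates 2 and 3 without exon 5 nearly met. Its log2 fold change over input was -4.63 ± 1.31 with exon 5 and -2.26 ± 1.17 without (SE), and without replicate 2 the value with exon 5 was -6.78.

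Hspa5 and Hsp90b1, the genes with the stress element, encode BiP and Grp94, the Hsp70 and Hsp90 chaperones of the lumen. Hspa5 (ENSMUSG00000026864.13; chromosome 2, 34772090 to 34776529) had 272, 113 and 58.7 CPM with exon 5, 132, 359 and 462 CPM without exon 5, and 321, 661 and 674 CPM in the inputs. Hsp90b1 (ENSMUSG00000020048.13; chromosome 10, 86690841 to 86705444) had 458, 472 and 236 CPM with exon 5, 266, 592 and 479 CPM without exon 5, and 1154, 1299 and 311 CPM in the inputs. Hspa5 was below every input with exon 5 and overlapped the inputs without it, while Hsp90b1 overlapped them with both isoforms because input 3 was low. Hspa5 stood at a log2 fold change over input of -1.90 ± 0.80 with exon 5 and -0.79 ± 0.78 without, and Hsp90b1 at -1.25 ± 0.65 with exon 5 and -1.05 ± 0.65 without (SE). Rabepk overlaps Hspa5 in the annotation.

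Tmbim6 had fitted values on opposite sides of input with the isoforms under TMM scaling, though not after the length correction (-3.10 with exon 5 and -0.72 without). Tmbim6 (ENSMUSG00000023010.15; chromosome 15, 99392947 to 99410049) encodes Bax inhibitor 1, a multipass protein of the endoplasmic reticulum membrane that limits calcium release and cell death. It had 58.7, 17.6 and 43.3 CPM with exon 5, 261, 134 and 324 CPM without exon 5, and 67.9, 50.4 and 188 CPM in the inputs. The libraries with exon 5 were all below those without it, and each isoform overlapped the inputs, which held only 11, 9 and 26 counts. Its log2 fold change over input was -1.35 ± 0.97 with exon 5 and 1.24 ± 0.96 without (SE).

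Across the 10 genes, 6 were below every input in all libraries with exon 5 (Lamp1, Itgb1, Bsg, Emb, Ddost and Hspa5) and 1 was above (Lrp1). Without exon 5 the counts were 5 below (the same list less Hspa5) and 2 above (Lrp1 and Slc3a2). Among all 8342 genes tested, 3.4% lay below every input and 33.1% above with exon 5, and 3.43% below and 35.8% above without it. A gene at 0 in any input cannot lie below every input. The 284 genes below with exon 5 and the 286 below without it thus come from the 1626 with a count in all 3 inputs. These contrasts were in view when the genes were listed, so nothing is read from the counts. The median log2 fold change of the 10 was -2.02 with exon 5 and -1.65 without, beside 1.03 in each contrast for all genes tested. Among the 1626 tested genes with a count in all 3 inputs, as the 10 genes have, the medians were 0.04 with exon 5 and 0.05 without. The contrasts share the same inputs and are therefore not independent of each other.

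**Figure D2:**
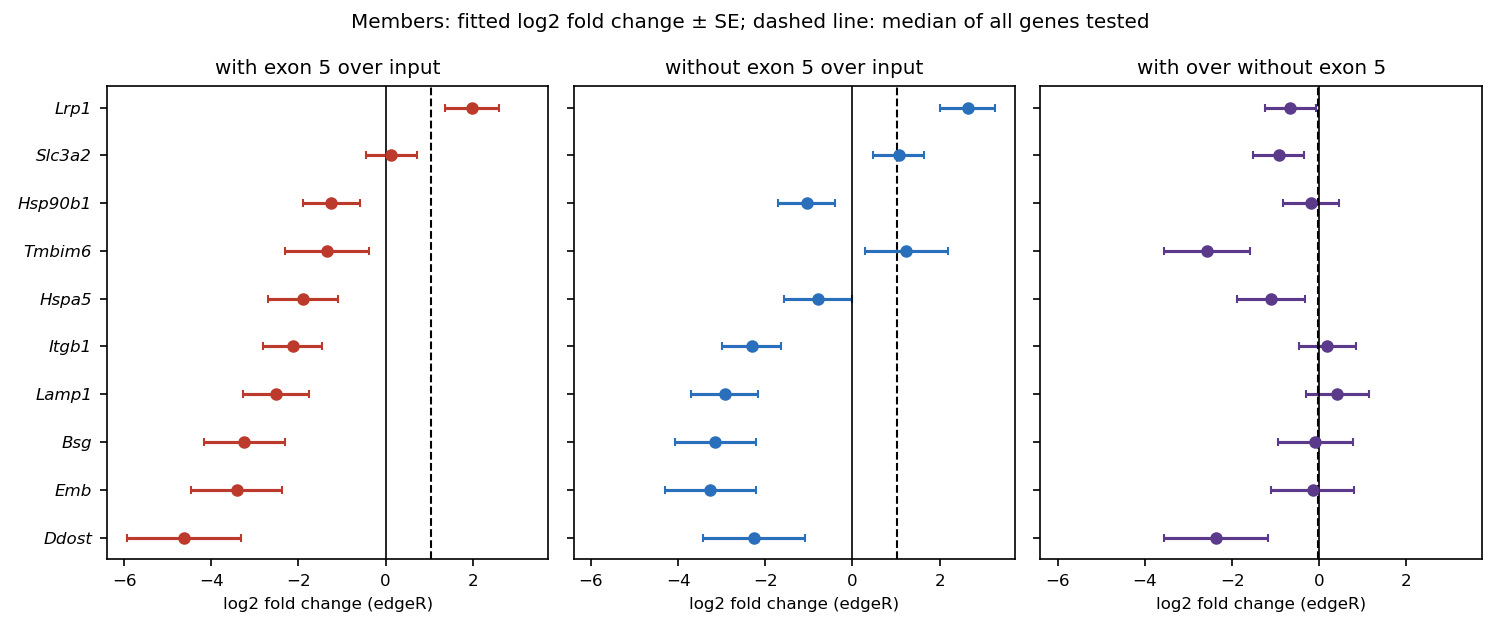
Fitted log2 fold change of each mRNA with its SE, in panels for with exon 5 over input, without exon 5 over input, and with over without exon 5; a dashed line marks the median of all 8342 genes tested. Most points lie left of 0 and of the dashed line in the panels against input, whereas between isoforms Tmbim6 (-2.58) and Ddost (-2.37) lie farthest from 0.

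Scaling moved the zero of the comparisons against input. With library size alone in place of TMM, the medians of all genes were 0.35 with exon 5 and 0.33 without, and Slc3a2 stood at -0.59 with exon 5 and 0.32 without. Lamp1, Itgb1, Bsg, Emb, Ddost, Hspa5 and Hsp90b1 kept a negative sign in both contrasts against input under all 17 alternative settings.

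The genes also differed in length, and length went with the fold change over input. Lrp1 is the longest, with 15378 bases of CDS and UTR in the deposited lengths, 13750 of them CDS. The other 9 ran from 1682 bases (Bsg) to 3887 bases (Itgb1). Lrp1, Hsp90b1 and Slc3a2 have no 5' UTR entry, so their lengths cover CDS and 3' UTR only. Over all genes the median log2 fold change over input was 0.07 with exon 5 and 0.22 without for mRNAs of up to 2000 bases, and 0.99 with exon 5 and 1.06 without for 2000 to 4000 bases. For the 42 genes over 15000 bases the medians were 1.94 with exon 5 and 1.81 without, so Lrp1 lay near its length class with exon 5 and above it without. After a fitted length trend was removed, Lrp1 stood at -0.40 with exon 5 and 0.35 without, and Tmbim6 without exon 5 at -0.72. The same correction put Slc3a2 at -1.16 with exon 5 and at -0.44 without. With exon 5 it put Lamp1 at -3.60, Itgb1 at -3.93, Bsg at -4.08, Emb at -4.74 and Ddost at -5.85, where the median of all genes was -0.26. Relative to the median of all genes, Lamp1 with exon 5 was at -3.33 after the correction and -3.55 before it, and Lrp1 with exon 5 at -0.14 after it and 0.95 before it.

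**Figure D3:**
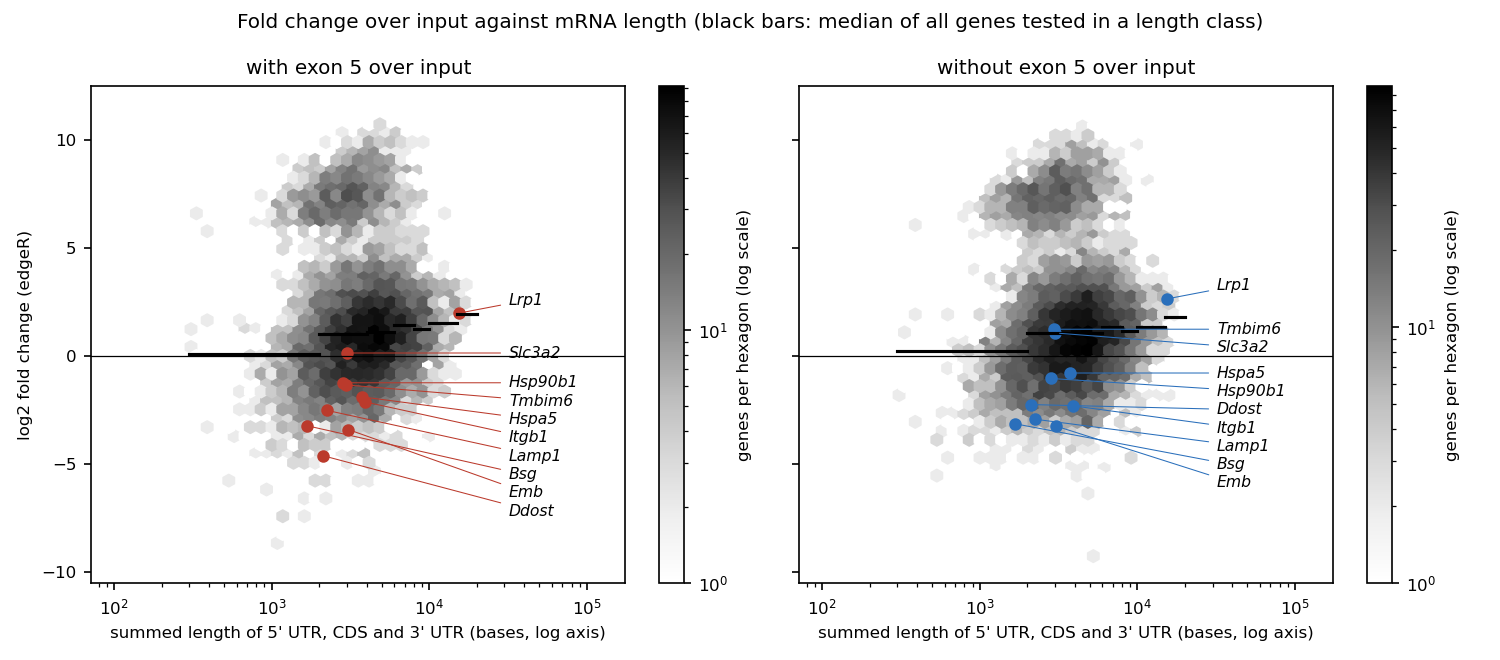
Log2 fold change over input against summed length of 5' UTR, CDS and 3' UTR (log axis) for all genes tested (hexagons, darker for more genes), with exon 5 (left panel, red points) and without (right panel, blue points); black bars are class medians. Lrp1 sits alone at 15378 bases, the other members lie between 1682 and 3887 bases, and the upper cloud is where the 1221 genes at 0 in all inputs have their median (7.45 with exon 5).

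Per kilobase of mRNA, the order of the levels differed between the isoforms and the inputs. With exon 5, Slc3a2 (201 ± 18.1 CPM per kb) came before Hsp90b1 (138 ± 47.0), and these 2 did not overlap each other or Lamp1, the next (51.2 ± 9.30). Itgb1 (48.6 ± 22.3), Lrp1 (42.3 ± 9.14), Hspa5 (39.3 ± 29.5) and Bsg (36.4 ± 11.5 CPM per kb) followed with overlapping ranges, and Tmbim6 (13.5 ± 7.05), Emb (11.6 ± 9.92) and Ddost (4.53 ± 6.28) closed the order below them (SD, n = 3). Without exon 5, Slc3a2 (382 ± 53.8 CPM per kb) was apart from Hsp90b1 (158 ± 58.6), and every later pair of neighbours overlapped. That run held Hspa5 (84.6 ± 44.9), Tmbim6 (81.3 ± 32.8), Lrp1 (67.0 ± 32.8), Itgb1 (42.7 ± 15.6), Bsg (38.6 ± 28.1), Lamp1 (38.4 ± 7.74), Ddost (23.6 ± 19.7) and Emb (12.9 ± 6.29 CPM per kb). In the inputs the first 8 overlapped pair by pair, from Bsg (345 ± 250 CPM per kb), Hsp90b1 (326 ± 189), Lamp1 (294 ± 112) and Itgb1 (213 ± 23.9) through Slc3a2 (183 ± 114), Hspa5 (147 ± 53.3) and Emb (123 ± 68.1) to Ddost (113 ± 36.9). Tmbim6 (34.7 ± 25.5) and Lrp1 (10.7 ± 3.77 CPM per kb) had the lowest means, with no overlap between neighbours in this order. The highest Tmbim6 input (63.9 CPM per kb) was nevertheless above the lowest of Emb (44.9) and of Slc3a2 (52.7). Lrp1 thus had the lowest density of the 10 in the inputs and a middle place in both isoforms.

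The isoform contrast, with exon 5 over without exon 5, asks which mRNAs depend on the alternative exon. Ddost only just separated, with a highest library of 24.9 CPM with exon 5 and a lowest of 25.4 CPM without. Among the 10, the libraries of Tmbim6, Ddost and Slc3a2 did not overlap between isoforms. All 3 were lower in every library with exon 5 than in any library without it, as were 7.43% of all genes tested, and none of the 10 was higher in every library, against 6.49% of all genes. Tmbim6 averaged 39.9 ± 20.8 CPM (SD, n = 3) with exon 5 and 240 ± 96.8 CPM (SD, n = 3) without exon 5, a log2 fold change of -2.58 ± 0.99 (SE; 95% interval -4.67 to -0.49). Its p was 0.0187 before adjustment and 1.00 after Benjamini-Hochberg adjustment over all 8342 genes in edgeR's quasi-likelihood test. Its fold change stayed between -2.97 and -2.24 in all 17 alternative settings.

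Ddost averaged 9.61 ± 13.3 CPM (SD, n = 3) with exon 5 and 50.1 ± 41.7 CPM (SD, n = 3) without exon 5, a log2 fold change of -2.37 ± 1.20 (SE; 95% interval -4.92 to 0.18). Its value leaned on few counts, moving to -4.60 without replicate 2 of the libraries with exon 5 and to -1.45 without replicate 1 of those lacking it. Slc3a2, by contrast, was well counted and tight, at 606 ± 54.6 CPM (SD, n = 3) with exon 5 and 1154 ± 163 CPM (SD, n = 3) without exon 5. Its log2 fold change was -0.93 ± 0.58 (SE; 95% interval -2.17 to 0.31). This SE rests on the spread over all 9 libraries, inputs included, and was 0.33 with input 3 left out. The adjusted p was 1.00 for both genes in edgeR's quasi-likelihood test.

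The remaining 7 overlapped between isoforms. Hspa5 had a log2 fold change of -1.11 (95% interval -2.77 to 0.56) and Lrp1 of -0.66 (-1.91 to 0.59). Lamp1 (0.41), Itgb1 (0.18), Bsg (-0.09), Emb (-0.16) and Hsp90b1 (-0.20) were nearer 0, but the interval was wide even for Itgb1, at -1.19 to 1.56, so changes of more than 2-fold in either direction lie inside it. All 7 had an adjusted p of 1.00 in edgeR's quasi-likelihood test. The median of the 10 was -0.43 beside -0.03 for all genes tested. The test called 0 of 8342 genes between isoforms (0% on either side), with 93 at an unadjusted p under 0.05. DESeq2 called 0, with 220 at that level, and limma-voom called 2, with 462. Among the 10 genes, Tmbim6 reached that level in edgeR, and Tmbim6 and Ddost in DESeq2. In limma-voom Slc3a2, Tmbim6, Hspa5, Ddost and Lrp1 did.

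The authors' deposited table, which comes from these same libraries and is no independent evidence, lists 5 of these genes. It gives Tmbim6 a log2 fold change of -1.30 in the CDS and -4.74 in the 3' UTR. Tmbim6 carries the table's class for the isoform without exon 5 in both parts, as do 8.32% of 4532 classified CDS entries and 10.1% of 2787 classified 3' UTR entries in the authors' deposited table. Lrp1 (-0.75 in the CDS, 0.15 in the 3' UTR), Hspa5 (-0.94), Hsp90b1 (-0.03) and Slc3a2 (-0.86, each in the CDS) are classed there as held by both isoforms in the authors' deposited table.

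By gene part, the fitted difference in Tmbim6 was larger in the 3' UTR than in the CDS, though part use did not pass the threshold. With exon 5 its 3' UTR had 0, 6 and 8 counts, against 47, 61 and 392 without exon 5, while the inputs had 0, 9 and 2. Its CDS had 40, 6 and 37 counts with exon 5, 85, 50 and 59 without exon 5, and 11, 0 and 24 in the inputs. The 3' UTR counts did not overlap between isoforms and replicate 3 without exon 5 held most of them, whereas the CDS levels overlapped. In edgeR's quasi-likelihood test the 3' UTR log2 fold change was -4.91 ± 1.49 (SE; 95% interval -8.03 to -1.79), with a p of 0.00377 before and 0.999 after adjustment over 4984 genes. The CDS gave -1.32 ± 1.31 (SE; 95% interval -4.13 to 1.49; adjusted p = 1.00 in edgeR). Relative to the whole gene, edgeR's diffSpliceDGE put the CDS of Tmbim6 at 1.22 and its 3' UTR at -2.13 on the log2 scale. Its p for the gene was 0.074 before and 0.998 after adjustment over 4221 genes.

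Slc3a2 was lower with exon 5 in both parts. Its CDS had 538 ± 36.9 CPM with exon 5 and 1008 ± 138 CPM in the libraries lacking it (SD, n = 3 each). Its 3' UTR had 68.1 ± 23.4 CPM with exon 5 and 146 ± 26.0 CPM in the libraries lacking it (SD, n = 3 each). Neither part overlapped between the isoforms, as held for 7.2% of all genes on that side in the CDS and for 6.32% in the 3' UTR. The log2 fold changes were -0.88 ± 0.74 in the CDS and -1.25 ± 1.05 in the 3' UTR (SE), with adjusted p of 1.00 and 0.999 in edgeR's quasi-likelihood test. No other of the 10 separated in the CDS, and of the 9 tested in the 3' UTR (not Ddost) only Tmbim6 and Slc3a2 did, both lower with exon 5 (6.62% of all genes were higher there in every library). Over all genes the test called 0 of 6376 in the CDS and 0 of 4984 in the 3' UTR (0% in each), with 82 and 93 at an unadjusted p under 0.05. DESeq2 also called 0 in each, with 167 and 164 at that level. For part use, edgeR called 0 of 4221 genes (0%), with 66 at an unadjusted p under 0.05.

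Both chaperones held most of their isoform counts in the CDS. Over whole libraries the CDS held 66.1% to 68.5% of counts with exon 5, 66.7% to 68.8% without exon 5 and 45.4% to 47.6% in the inputs. Hspa5, whose CDS makes up 52.4% of its length, had 85.4%, 85.7% and 85.2% of its counts in the CDS with exon 5, 70.0%, 73.4% and 87.5% without exon 5, and 26.9%, 59.3% and 33.3% in the inputs. Hsp90b1 (85.2% of its length in the CDS) had 86.1 ± 5.40% with exon 5, 79.9 ± 4.18% without exon 5 and 53.8 ± 10.9% in the inputs (SD, n = 3 each). In both chaperones every isoform library held a larger share in the CDS than any input, as was also true of whole libraries. How many single genes show this order was not counted. Hsp90b1, like Slc3a2 and Lrp1, has no 5' UTR entry, so its shares are of CDS and 3' UTR only.

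Slc3a2 was alike in the isoform libraries and unlike itself in the inputs. Its CDS share was 88.9 ± 3.13% with exon 5 and 87.4 ± 0.88% without exon 5 (SD, n = 3 each), on a CDS of 56.1% of its length. The inputs gave 16.9%, 87.1% and 54.5%, with exact 95% binomial intervals of 10.9% to 24.5%, 79.9% to 92.4% and 32.2% to 75.6%. The intervals did not overlap, but they treat each count as independent, and whether duplicate reads were collapsed is not known. Lrp1 held 83.2 ± 15.0% of its counts in the CDS with exon 5, 91.5 ± 4.15% without exon 5 and 62.2 ± 14.6% in the inputs (SD, n = 3 each).

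In Bsg, Itgb1 and Emb the mean CDS share was lower in both isoforms than in the inputs, the other way round from whole libraries. Bsg had 53.2 ± 18.9% with exon 5, 71.4 ± 22.0% without exon 5 and 86.0 ± 17.3% in the inputs, and all 147 counts of its high input 3 were in the CDS. Itgb1 had 60.4 ± 14.7% with exon 5, 61.6 ± 8.42% without exon 5 and 77.2 ± 15.5% in the inputs. Emb had 59.5 ± 36.7% with exon 5, 49.6 ± 10.6% without exon 5 and 81.2 ± 28.1% in the inputs (SD, n = 3 each). The isoform and input ranges overlapped in all 3 genes.

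Among the 7 genes with a 5' UTR entry, Lamp1 had the highest mean 5' UTR share with either isoform. Its 5' UTR is 228 of its 2229 bases. The shares of whole libraries also include genes with no 5' UTR entry, which lowers them. The 5' UTR held 24.9 ± 15.7% of Lamp1 counts with exon 5, 37.5 ± 2.35% without exon 5 and 9.26 ± 15.5% in the inputs (SD, n = 3 each), whereas it held 2.96% to 3.65% of whole libraries with exon 5, 3.30% to 3.64% without exon 5 and 2.89% to 3.42% in the inputs. The counts were 11, 27 and 25 with exon 5, 14, 29 and 47 without exon 5, and 0, 1 and 29 in the inputs. All 6 isoform libraries thus had counts there, and of the inputs only input 3 had more than 1. Itgb1 also held 5' UTR counts in all 9 libraries (14.6 ± 8.20% with exon 5, 11.6 ± 2.14% without exon 5 and 9.94 ± 5.39% in the inputs). Emb (14.2 ± 11.3%) and Ddost (14.9 ± 12.9%) had means above whole libraries without exon 5. With exon 5 they had 5.56 ± 9.62% and 0% (SD, n = 3 each).

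The isoforms were compared in their CDS shares by a two-sided exact permutation test of 3 libraries against 3, which cannot give a p below 0.1. The lowest p was 0.2, for Tmbim6 (77.4 ± 25.3% with exon 5 and 39.9 ± 24.7% without) and for Hsp90b1, and every adjusted p was 1.00. At this number of libraries no difference in CDS share was detectable. Ddost had a library with a single count and gives no usable share there.

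Related genes were read from 9 lists of the same pathways (116 genes, of which 69 were named in the tables and 57 tested). These lists were chosen with earlier results of these data known. Their calls and adjusted p over input are therefore a description only. Between the isoforms edgeR called 0 of the 57 in either direction. Over input it called 0 in either direction with exon 5, where 8.31% of all genes were called higher and 0.863% lower. Without exon 5 over input it called 2 higher and 0 lower, where 8.12% of all genes were called higher and 0.587% lower. The 2, named because they passed the threshold, were Dnajc10, a disulfide reductase of the endoplasmic reticulum lumen, and Grina, a relative of Tmbim6.

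Grina had 511, 1076 and 1882 counts with exon 5 and 752, 1399 and 2657 without exon 5, against 3, 68 and 0 in the inputs. Its log2 fold change over input was 3.35 ± 1.05 with exon 5 (adjusted p = 0.056) and 3.63 ± 1.06 without (SE; adjusted p = 0.047 in edgeR's quasi-likelihood test). Dnajc10 had 80, 38 and 85 counts with exon 5 and 70, 93 and 110 without exon 5, against 0, 2 and 0 in the inputs. Pooled over libraries and scaled, that is 20.2 times input with exon 5 (exact 95% interval 5.53 to 168) and 23.8 times without (6.52 to 197), intervals that cover counting error only. Its adjusted p was 0.057 with exon 5 and 0.048 without in edgeR's quasi-likelihood test. Over the 17 alternatives (edgeR, DESeq2 or limma-voom), the adjusted p for Grina ran from 9.2e-06 to 0.133 with exon 5, past 0.05 in 8, and from 1.4e-06 to 0.117 without exon 5, past 0.05 in 7. For Dnajc10 it ran from 0.010 to 0.148 with exon 5, past 0.05 in 2, and from 0.0080 to 0.129 without exon 5, past 0.05 in 5. Both calls without exon 5 were lost whenever 1 of the 6 isoform libraries or input 1 was left out, and kept without input 2 or without input 3.

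The medians of the lists are given as a description, beside a median of 1.03 for all genes tested in each contrast over input. The oligosaccharyltransferase (5 tested, with Rpn1 and Rpn2) had a median log2 fold change over input of -1.26 with exon 5 and -1.17 without, and the other lumenal chaperones and folding enzymes (11 tested) -1.98 with exon 5 and -1.25 without. Rpn1, a ribophorin of the same complex as Ddost, had 154 ± 21.3 CPM with exon 5 and 138 ± 65.6 CPM without, against 565 ± 93.4 CPM in the inputs (SD, n = 3 each; adjusted p over input in edgeR of 0.11 with exon 5 and 0.093 without). Its partner Rpn2 had 6, 91 and 0 counts in the inputs, so it has no stable value against them. The translocon and signal peptidase (7 tested) had -1.19 with exon 5 and -0.52 without, the lysosomal membrane list (6) -0.73 with exon 5 and -0.51 without, and the partners of the single-pass glycoproteins (4) -1.11 with exon 5 and -0.97 without.

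Other lists lay nearer to the median of all genes. The integrins (4 tested) had a median of 0.70 with exon 5 and 0.65 without, and the low-density lipoprotein receptor family (7) 0.21 with exon 5 and -0.03 without. Itga6, a chain that pairs with Itgb1, was at 960 ± 203 CPM with exon 5, 1003 ± 213 CPM without exon 5 and 656 ± 423 CPM in the inputs, and Lrp6 at 357 ± 114 CPM with exon 5, 286 ± 66.4 CPM without exon 5 and 293 ± 248 CPM in the inputs (SD, n = 3 each). The unfolded protein response genes (11 tested) had 0.94 with exon 5 and 1.05 without, and the TMBIM family (2 tested, Grina among them) 1.71 with exon 5 and 1.39 without. Among the unfolded protein response genes, the stress sensor kinase Ern1 had 506 ± 89.0 CPM with exon 5, 415 ± 64.1 CPM without exon 5 and 155 ± 188 CPM in the inputs (SD, n = 3 each; adjusted p over input in edgeR of 0.28 with exon 5 and 0.38 without).

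The mean profile of the 10 over the 9 libraries, each gene centred on its own mean log2 CPM, was closest to 3 genes outside the list. Among 6458 candidates these were Spty2d1, with a root mean square difference of 0.33 on the log2 scale, Set (0.35) and Cbx5 (0.37). The 10 genes themselves differed from their mean profile by 0.59 (Hspa5) to 1.79 (Lrp1). Cbx5, for example, had 282 ± 96.3 CPM with exon 5, 292 ± 103 CPM without exon 5 and 896 ± 105 CPM in the inputs (SD, n = 3 each).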

How the data were processed

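Per the file headers, the deposited tables hold raw counts for each gene part (5' UTR, CDS and 3' UTR) and for whole genes, part lengths in bases, and a combined table of the authors with a log2 fold change between isoforms per part. In every cell the total equalled the sum of its parts (0 exceptions). Per the submitters' processing notes, mm10, TopHat2 and DESeq2 were used. The sources used here do not give the counting tool, strand handling or any collapsing of duplicate reads. The exact intervals, for the CDS shares of Slc3a2 and the pooled ratios of Dnajc10, cover counting error only and treat each count as independent. The intervals of edgeR's log2 fold changes rest on the SE of the fit, which includes the spread between libraries. That spread was estimated per gene over all 9 libraries, so the isoform contrasts also carry the spread of the inputs. In all, 27 columns of per-sample values were not used.

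Names came from the deposited tables (11718 of 22442 genes), and coordinates are those of GRCm38.p6. The 10 genes, the 9 related lists and the markers were chosen with earlier results of these data known. Named genes were the 10, Chtop, the genes of each related list past the threshold or else its 2 with most counts, and the 3 nearest profiles.

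Tests were edgeR 4.0.16 quasi-likelihood (R 4.3.3; robust, TMM, filterByExpr with minimum count 10 and minimum total 15, all 9 libraries, no covariate), with Benjamini-Hochberg adjustment over all genes tested and a threshold of 0.05. Part use was tested with diffSpliceDGE. Alternatives were other scalings, no filter, DESeq2 1.42.0, limma-voom 3.58.1, a replicate block, a length correction and leaving out each library. The replicate block was checked first. Same-numbered isoform libraries deviated from their group means with correlations of -0.001, 0.03 and 0.04, so the numbers were not taken as pairs. Titles and count columns number inputs 1 and 2 in opposite order, and the titles were used.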

Additional observations from a re-analysis of the deposited data

How the results depend on the processing

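Between isoforms no setting gave the 10 genes a call. The count of genes called on gene totals was 0, and it was 4 with no filter on low counts and 2 with limma-voom. It was 0 in the CDS and in part use under every setting run, and 0 in the 3' UTR except for 2 with no filter. Against input the counts moved with the processing. With exon 5 over input, 765 genes were called (693 higher, 72 lower), and 447 (359 higher, 88 lower) with DESeq2 size factors in edgeR, 390 (262 higher, 128 lower) with library size alone, 1211 with no filter, 1708 with DESeq2 and 288 (127 higher, 161 lower) with the length correction. Without exon 5 over input, 726 were called (677 higher, 49 lower), and 358 (302 higher, 56 lower) with DESeq2 size factors, 296 (210 higher, 86 lower) with library size alone, 1184 with no filter, 1654 with DESeq2 and 139 (49 higher, 90 lower) with the length correction. Leaving out 1 library gave 60 to 2412 genes with exon 5 over input and 39 to 2355 without exon 5 over input, the highest being without input 2 in each, and the cause was not tested. The title numbers did not pair the libraries. A replicate block on them gave 273 genes with exon 5 over input, 284 without exon 5 over input and 0 between isoforms, in gene totals, CDS, 3' UTR and part use alike. With the inputs numbered as in the count columns, an alternative chosen after seeing the data, the block gave 296, 294 and 0 genes.

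Among the recomputed fold changes of the 10 genes, 40 between isoforms and 8 against input changed sign. Those between isoforms follow, none of them of a called gene. On gene totals, leaving out 1 library gave ranges of -0.26 to 0.51 for Itgb1, -0.51 to 0.58 for Bsg, -1.13 to 0.21 for Emb and -0.47 to 0.056 for Hsp90b1. Limma-voom gave -0.047 for Itgb1 and 0.090 for Bsg, the replicate block 0.12 and the block with column numbers 0.15 for Bsg, and the length correction 0.44 for Bsg, 0.040 for Emb and 0.031 for Hsp90b1. In the CDS the ranges were -0.16 to 0.41 for Itgb1, -0.89 to 0.53 for Emb, -0.44 to 0.87 for Lamp1, -0.35 to 0.23 for Hsp90b1 and -0.92 to 0.37 for Bsg. In the 3' UTR they were -0.55 to 0.36 for Itgb1, -1.36 to 0.40 for Lrp1, -0.22 to 1.58 for Lamp1, -1.13 to 0.18 for Emb and -0.11 to 1.15 for Bsg, with library size alone giving 0.0087 for Itgb1 and 0.16 for Lrp1, and DESeq2 0.027 for Lrp1. Against input, Slc3a2 with exon 5 (0.13) changed sign in 5 of 17 settings, to -0.30 with DESeq2 size factors in edgeR or with DESeq2, -0.59 with library size alone, -1.16 with the length correction and -0.29 without input 3. The length correction also changed the sign of Lrp1 with exon 5 (-0.40), and of Slc3a2 (-0.44) and Tmbim6 (-0.72) without exon 5. Leaving out an isoform library in the CDS shares was also chosen after seeing the data. The inputs, with 75504 to 173342 counts, set the limit: Tmbim6, Lrp1 and Ddost rested on 9 to 44 counts in each of them.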
